A study of Mus musculus with 4 samples.

Results

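The natriuretic peptide system of the heart was described here through 7 genes: the peptide genes Nppa and Nppb, the processing protease genes Corin and Furin, and the receptor genes Npr1, Npr2 and Npr3. Members were chosen by gene symbol, as every probe of the deposited value table that the platform annotation assigns to 1 of these 7 names, among 16593 named genes in all. They had 9 probes, 3 for Furin and 1 for each other gene. A probe was detected on at least 1 array for 6 of the genes and on all 4 arrays for 5.

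RNA came from heart tissue of C57Bl6 mice that were 8 to 9 weeks old, had 1 kidney removed and were treated for 8 days. A tissue amount of 30 mg is given for every group. WT mice carried MR flox/flox alleles of the mineralocorticoid receptor gene and received vehicle or DOC/salt, which is deoxycorticosterone with salt loading. CM-MRKO mice carried the same MR flox/flox alleles with MLC2v Cre, a recombinase driven by the ventricular myosin light chain gene and thus active in ventricular cardiomyocytes, and received the same vehicle or DOC/salt. Each of the 4 groups is a pool of equal amounts of mRNA from 8 animals, read on 1 single-colour Illumina bead array. No difference below therefore has a replicate check, array and group cannot be told apart, and no p-value is given. The controls carry the floxed alleles and no Cre is named in their labels, so an effect of Cre and one of receptor loss cannot be told apart.

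Atrial natriuretic peptide (ANP, from Nppa) and B-type natriuretic peptide (BNP, from Nppb) are made by cardiomyocytes, mostly in the atria of the healthy adult heart and in the ventricles under load. Corin, a membrane serine protease of cardiomyocytes, cleaves pro-ANP, and furin, a protease of the secretory pathway, cleaves pro-BNP. Both peptides act through NPR-A (Npr1), a guanylyl cyclase whose product cGMP promotes salt excretion and vasodilation and restrains cardiac growth. NPR-B (Npr2) is the guanylyl cyclase receptor of C-type natriuretic peptide, and NPR-C (Npr3) clears all of these peptides from the tissue. Deoxycorticosterone is a ligand of the mineralocorticoid receptor.

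Nppa and Nppb are neighbours on mouse chromosome 4 and had the widest genotype differences of the detected members under DOC/salt, so their proximal promoters are shown. The 250 bases before each annotated start are from RefSeq, build GRCm38.p6, forward strand, Nppa at chr4:148000472-148000721 and Nppb at chr4:147985650-147985899. Capitals mark GATAA, the core of the sites bound by GATA factors, on either strand (TTATC on the reverse).
Nppa: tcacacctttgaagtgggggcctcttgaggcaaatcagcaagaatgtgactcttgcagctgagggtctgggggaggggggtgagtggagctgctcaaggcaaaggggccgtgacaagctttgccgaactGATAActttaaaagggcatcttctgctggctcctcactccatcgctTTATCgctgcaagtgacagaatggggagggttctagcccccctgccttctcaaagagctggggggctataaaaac
Nppb: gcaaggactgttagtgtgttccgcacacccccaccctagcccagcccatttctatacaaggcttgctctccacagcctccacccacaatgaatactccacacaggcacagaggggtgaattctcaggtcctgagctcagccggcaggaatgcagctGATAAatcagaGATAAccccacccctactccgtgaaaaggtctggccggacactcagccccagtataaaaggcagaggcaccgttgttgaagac

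Each of these windows held 2 GATAA matches. In Nppa they began 121 bases (forward) and 75 bases (reverse) before the start, and in Nppb 94 and 83 bases before it, both forward. Of 32851 promoter windows of this length in the table, 22.6% held at least 1 match and 4.28% held at least 2. TATAAA, the letters of the TATA box, was found once in each, beginning 9 bases before the start in Nppa and 31 in Nppb. It was in 12.4% of all windows on either strand, and also in 1 Furin window. CATTCC, the MCAT element of TEAD factors, was found in Nppb on the reverse strand and not in Nppa (12.6% of windows). AGAACA, a half-site of corticosteroid receptors present in 16.1% of windows, was not among the letters of the Nppa or the Nppb window. Of the 7 genes (8 windows, since Furin has 2) it appeared in Npr3 alone. No match of these 4 motifs overlapped another in the members' windows. A match of letters is a description and was not tested for binding.

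The 4 arrays differed in brightness, with median intensities of 91.5 to 102.7 and between 5696 and 6534 genes detected. A probe was called detected where its deposited intensity exceeded that of all but 1% of 1341 probes for odorant, vomeronasal and taste receptor genes, which lay at 108.7 to 121.7. The WT vehicle array stood apart: of 5471 genes detected on every array, 174 read lower there than on any other array by 1.5-fold or more, against 0 to 7 on each of the other arrays. No probe carried the name Nr3c2, so the deletion has no check of its own. The cardiomyocyte genes Actc1 and Myh6 were bright on every array, with intensities of at least 13192.3 and 10950.1.

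**Figure D1:**
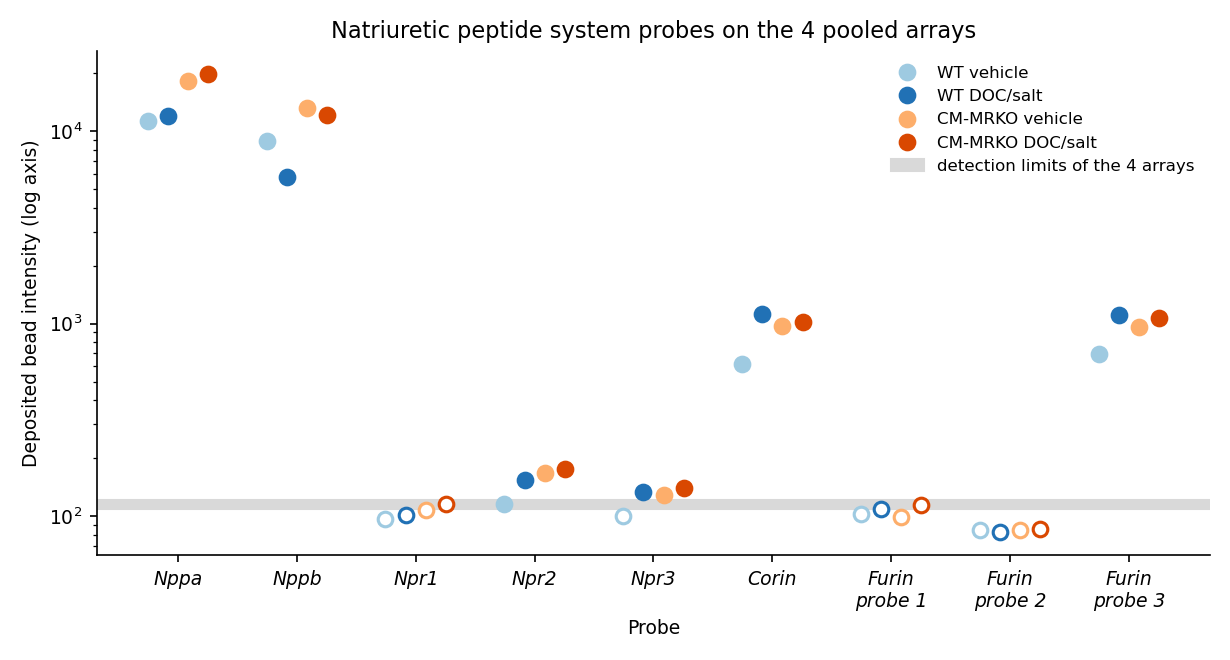
Deposited bead intensity (log axis) of the 9 probes of the natriuretic peptide system on each of the 4 pooled arrays, with 1 point per array; open points were under that array's detection limit and the grey band spans the 4 limits. Nppb is lowest on the WT DOC/salt array, Nppa is brighter on both CM-MRKO arrays than on both WT arrays, and Npr1 and 2 of the 3 Furin probes are under the limit throughout.

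Nppb, the BNP gene, was the member that differed most between the pools. Its deposited intensity was 8912.8 (vehicle) and 5790.4 (DOC/salt) in the WT pools, and 13116.9 (vehicle) and 12169.5 (DOC/salt) in the CM-MRKO pools. This order, WT before CM-MRKO and vehicle before DOC/salt, is kept below. The WT DOC/salt pool was thus the lowest of the 4, and both CM-MRKO pools lay above both WT pools. After background correction and quantile normalization, which equalises the distributions of the arrays, the log2 levels were 13.47, 12.41, 13.56 and 13.41 in the same order, so that 3 pools lay close together and WT DOC/salt alone was low. In bulk RNA, fewer cells that make a transcript and less of it per cell cannot be told apart.

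Between the DOC/salt pools Nppb was 2.004-fold higher in CM-MRKO than in WT, a log2 difference of 1.003. It was 1 of 6 detected members to differ by at least 1.5-fold in that comparison, where 1.82% of 6689 genes did so in either direction and 0.882% were higher. It was the fifth highest of all genes in this difference, and 0.209% of genes differed by more. The technical spread was the SD of disagreement between pairs of probes for 1 gene, divided by the square root of 2 to stand for 1 probe. It used the brightest pair of each gene detected on both arrays. For this comparison it was 0.19 on the log2 scale, from 1249 genes, and it holds no variation between animals. Both probes of a pair were read on the same arrays, so error they share is not part of this spread. This comparison does not use the WT vehicle array, and the difference lay between 0.89 and 1.07 under every processing alternative tried.

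In WT hearts Nppb was 2.08-fold lower after DOC/salt, a log2 difference of -1.05. Among the members 0 were higher and 1, Nppb, was lower of 6, against a background of 12.9% of genes past 1.5-fold in either direction and 4.08% lower. Only 3 of the 6391 genes had a more negative value. On the deposited intensities, without normalization, the difference was -0.62, or 1.54-fold. With each array scaled to the mean of 5 cardiomyocyte markers it was -1.56, but 1 of these markers, Mb, read 1294.8 in WT vehicle against at least 11927.4 on each other array. The technical spread was wider here, 0.33, as in every comparison with the WT vehicle array.

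In CM-MRKO hearts Nppb differed by -0.14 between DOC/salt and vehicle, a value within the technical spread of 0.17 and exceeded in size by 43.2% of genes. None of the 6 members passed 1.5-fold in that comparison, where 1.05% of genes did. Between the vehicle pools, CM-MRKO minus WT, it differed by 0.09, and 0 of 6 members passed, against 10% of genes. The deposited values gave 0.56 for this last difference, in a comparison where the median of all genes was itself shifted by 0.44 before normalization. Scaling to the cardiomyocyte markers gave -0.47, so the direction of this difference depended on the scaling. Subtracting the WT response to DOC/salt from the CM-MRKO response gave 0.91 for Nppb. It was the only detected member past 1.5-fold there, where 16.9% of genes passed and 6.79% were higher, and on the deposited values it was 0.51, short of the threshold of 0.58.

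Nppa, the ANP gene, read 11352.6 and 11966.8 in the WT pools, and 18315.6 and 19892.5 in the CM-MRKO pools, vehicle first. On the deposited scale the 2 CM-MRKO pools lay above the 2 WT pools, and within a genotype vehicle and DOC/salt lay close together. Log2 normalized levels were 13.87, 13.52, 14.05 and 14.09, in which WT DOC/salt was again the lowest but by less than for Nppb.

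The genotype difference of Nppa under DOC/salt was 0.57 on the log2 scale, or 1.49-fold, just short of the 1.5-fold threshold, and 1.97% of genes differed by more. Deposited intensities gave 1.66-fold, and scaling by the array medians or by detected probes also placed it past the threshold. In WT hearts the response of Nppa was -0.35 after normalization and 0.08 on the deposited values, so its direction depended on the scaling. With scaling to the cardiomyocyte markers it was -0.85, past the threshold, but Mb, among those markers, was dim on the WT vehicle array alone. The CM-MRKO response was 0.04. The difference of responses was 0.39, and it ran from 0.04 on the deposited values and 0.17 with median scaling to 0.89 with that marker scaling. The vehicle difference between genotypes was 0.19, and it too changed direction with the scaling, from 0.69 on the deposited values to -0.34 with the marker scaling. Only the marker scaling gave a negative value.

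The contrast between the peptide genes does not depend on the overall scale of an array. From WT vehicle to WT DOC/salt, the log2 difference of Nppb minus that of Nppa was -0.70 on the normalized values and -0.70 on the deposited values. For CM-MRKO DOC/salt minus CM-MRKO vehicle the same contrast was -0.18 normalized and -0.23 deposited. Between the DOC/salt pools it was 0.43 normalized and 0.34 deposited, with Nppb showing the wider genotype difference. These values show unequal differences and not that either gene stayed the same.

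Both peptide genes stood out from other bright genes under DOC/salt. Of 105 genes whose mean normalized level on the 2 DOC/salt arrays was at least that of Nppb, the 103 besides Nppa and Nppb differed between genotypes by -0.32 (Cox4i1) to 0.33 (Atp5b), and 0 passed 1.5-fold. This intensity range was chosen after the values were seen. The same range between the WT pools held 105 other genes, whose values ran from -0.46 (Acta2) to 0.82 (Cox5a), with 2 higher and 0 lower by 1.5-fold.

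**Figure D2:**
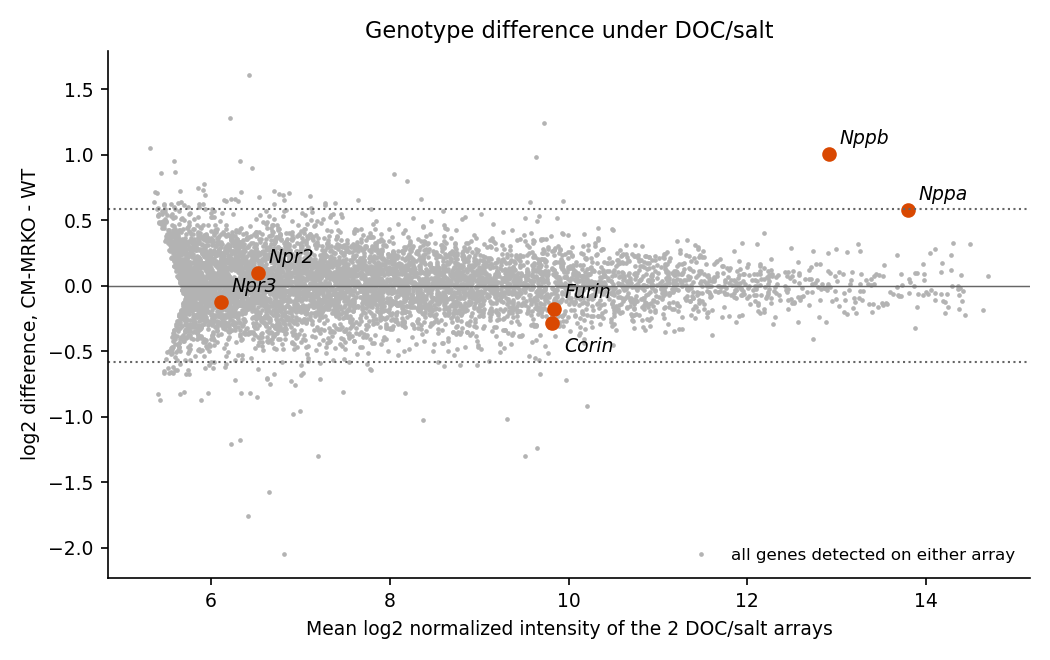
Log2 difference between the DOC/salt pools, CM-MRKO minus WT, against the mean log2 normalized intensity of both arrays, for 6689 genes (grey) and the 6 detected members (orange); dotted lines mark 1.5-fold. Nppb (1.003) and Nppa (0.57) lie above the other bright genes, while Corin, Furin, Npr2 and Npr3 lie within the cloud.

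Corin, the pro-ANP convertase, read 618.0 and 1128.8 in the WT pools, and 973.5 and 1017.7 in the CM-MRKO pools, vehicle first. The WT vehicle pool was the low one and the other 3 were similar. After normalization Corin differed by 0.24 in the WT response, by -0.04 in the CM-MRKO response, by -0.28 between the genotypes under DOC/salt and by 0.01 between the vehicle pools. None of these reached 1.5-fold. On deposited values the WT response was 0.87 and the vehicle difference 0.66, both in comparisons where the median of all genes was shifted by 0.39 and 0.44.

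Furin, the pro-BNP convertase, had 1 detected probe, which read 691.6 and 1107.4 in the WT pools, and 957.1 and 1066.3 in the CM-MRKO pools. Here too WT vehicle was lowest before normalization. The normalized log2 differences were 0.06 for the WT response, 0.06 for the CM-MRKO response, -0.17 between the DOC/salt pools and -0.18 between the vehicle pools. Its other 2 probes stayed under the detection limit on all 4 arrays, between 99.0 and 114.3 for the first and between 82.3 and 86.1 for the second.

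Npr1, the ANP and BNP receptor, was not detected on any array, with intensities of 96.7 and 101.7 in the WT pools and of 108.1 and 115.6 in the CM-MRKO pools. No fold is given for it. Npr2, the receptor of C-type natriuretic peptide, was detected on all 4 arrays but close to the limit, at 115.2, 153.3, 167.0 and 175.8 in the same order. Its normalized difference was 0.26 for the WT response, -0.02 for the CM-MRKO response, 0.10 between the DOC/salt pools and 0.37 between the vehicle pools, all short of 1.5-fold.

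Npr3, the clearance receptor, was under the limit in WT vehicle at 100.2 and above it in WT DOC/salt, at 133.8, and in both CM-MRKO pools, at 128.8 (vehicle) and 140.4 (DOC/salt). For WT DOC/salt against WT vehicle, the undetected side was set to the lowest detected normalized level of its array. This gave Npr3 a lower bound of 1.13-fold higher (measured log2 levels of 6.17 and 5.59). That bound holds for the quantile-normalized values and not for scaling to the cardiomyocyte markers, where the measured log2 difference was 0.03. Against CM-MRKO vehicle the bound gave no fold. Among the 3 arrays that detected it, the CM-MRKO response was 0.09 and the genotype difference under DOC/salt -0.13. On the deposited values that genotype difference was 0.07, so its direction depended on the processing.

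**Figure D3:**
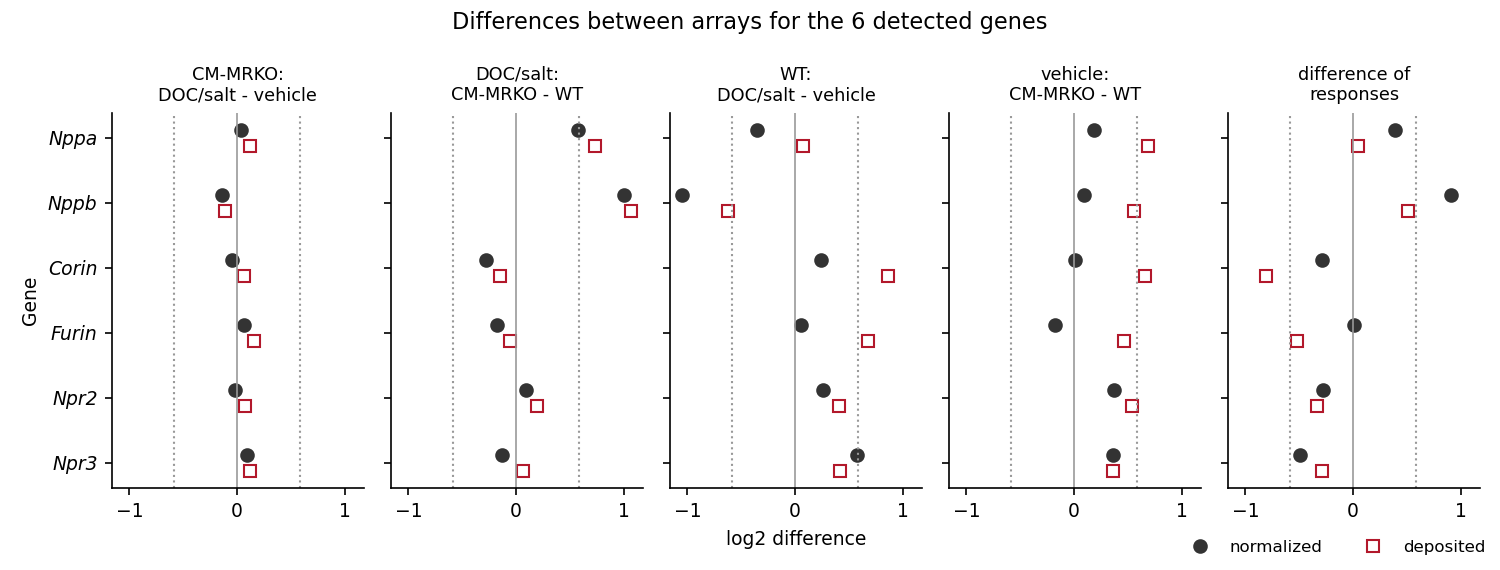
Log2 differences of the 6 detected genes in the 5 comparisons, with filled circles for normalized and open squares for deposited values; dotted lines mark 1.5-fold. Nppb lies past 1.5-fold in the genotype difference under DOC/salt and in the WT response on both scales. For Nppa, Nppb, Corin and Furin, values that use the WT vehicle array separate most between the scales. Npr3 was under the detection limit on that array, so its values there depend on the background correction.

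Other genes of the pathway were described from lists chosen with earlier results known. Of 5 further ligand and processing genes, 4 had a probe and only Ide, an insulin-degrading enzyme that also cleaves natriuretic peptides, was detected (260.7, 349.7, 382.5 and 365.5 in the same order). Nppc, the C-type peptide gene, Ostn, which encodes an NPR-C ligand, and Mme, which encodes the peptide-degrading neprilysin, were under the limit everywhere.

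Of 24 genes of cGMP signalling, 21 had a probe and 10 were detected on at least 1 DOC/salt array. Between the DOC/salt pools 0 were higher and 0 lower by 1.5-fold, with a median of 0.18 beside 0.02 over all genes. Pde2a, a cGMP-stimulated phosphodiesterase, differed by 0.14, Abcc5, a cyclic nucleotide exporter, by 0.24, Tnni3, cardiac troponin I, by 0.30, and Rgs4, a regulator of G protein signalling, by -0.30. In the WT response 1 of 8 passed, beside 12.9% of all genes. It was Pln, the phospholamban gene, which read 94.6 (undetected) in WT vehicle against 234.9 to 258.4 on the other 3 arrays. The CM-MRKO response held 0 past 1.5-fold and a median of 0.02.

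Transcription factors known to act on Nppa or Nppb numbered 22 in the list, of which 21 had a probe and 12 were detected under DOC/salt. Gata4, which binds GATA sites such as those marked in the promoters above, was detected on the CM-MRKO DOC/salt array alone (100.2, 92.5, 107.8 and 141.2 in the order above), so its difference between the DOC/salt pools rests on an undetected side and no fold is given. None of the others passed 1.5-fold there, and the list median was -0.06. Mef2c and Myocd, a cardiac transcription factor and a coactivator of serum response factor, were low on WT vehicle alone: Mef2c read 234.7 there against 472.6 to 579.7, and Myocd 200.9 against 421.4 to 463.4. Between the DOC/salt pools Mef2c differed by -0.09, Myocd by -0.08, Jun by -0.04 and Klf13 by -0.21.

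Of 13 names for genes of hypertrophy and the fetal programme, which often move with the peptide genes, 11 had a probe and 7 were detected. The list names 1 gene both as Ctgf, without a probe, and as Ccn2. Between the DOC/salt pools 0 of 7 passed 1.5-fold and the median was 0.14. Acta1, skeletal alpha-actin, differed by 0.40, Rcan1, a calcineurin regulator, by 0.27, Ccn2, connective tissue growth factor, by 0.20 and Fhl1, a stretch-linked LIM protein, by -0.33. In WT hearts 1 of 7, Acta1, was lower after DOC/salt, beside 4.08% of all genes. Its log2 difference was -0.73 (4939.8 to 4204.1), or -0.23 on the deposited values, and the list median was -0.12. In CM-MRKO hearts Acta1 differed by -0.48. Myh7, a classic fetal myosin gene, was not detected.

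Markers of the cells that hold these transcripts were set beside the peptide genes. Of 7 atrial markers only Myl4, the atrial light chain, was detected, and Myl7, Sln, Bmp10, Mybphl, Tbx5 and Dkk3 were under the limit on all arrays. Myl4 read 200.5, 191.8, 259.0 and 288.4 in the order above, was 0.63 higher on the log2 scale in CM-MRKO under DOC/salt and differed by -0.77 in the WT response, or -0.06 on the deposited values. The summed intensity of the atrial list ran from 735.5 to 736.0 in the WT pools and from 830.4 to 877.3 in the CM-MRKO pools, but 6 of its 7 probes were undetected, so these sums are mostly background and do not measure atrial transcripts. Ventricular markers (4 of 5 probed genes detected, Hey2 not) summed to 32955.3 and 32575.3 in WT and to 37965.6 and 43072.8 in CM-MRKO, vehicle first, and between the DOC/salt pools Irx4 differed by 0.18, Myl2 by 0.25, Myl3 by 0.28 and Kcne1 by 0.31. Myl4 and the ventricular light chains thus moved in the same direction as Nppa and Nppb under DOC/salt, and their part in the peptide differences was not tested.

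General cardiomyocyte markers differed little between the DOC/salt pools, with 0 of 6 past 1.5-fold and values of -0.05 for Actc1, 0.03 for Myh6, 0.00 for Tnnc1 and 0.07 for Mb, the myoglobin gene. Endothelial and endocardial markers, from cells known to hold Npr1 and Npr3, had 1 of 7 higher in CM-MRKO under DOC/salt, beside 0.882% of all genes. It was Plvap at 0.63, the list median was -0.06, and Tek, Cdh5 and Vwf were at -0.28, 0.26 and 0.22. Fibroblast markers had 0 of 7 past 1.5-fold in that comparison, with Dcn at -0.07, Pdgfra at -0.09, Col1a1 at 0.43 and Tcf21 at 0.18. Smooth muscle markers Acta2 and Myh11 differed by 0.32 and 0.21.

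Of 8 genes known to answer corticosteroids, 7 had a probe and all 7 were detected on at least 1 DOC/salt array. Between the DOC/salt pools 0 passed 1.5-fold and the median was 0.00. In the WT response the genes past 1.5-fold after normalization were Hif3a, under the limit in vehicle (95.1, then 126.2), and Fkbp5, under it after DOC/salt (120.9, then 109.2). Each has 1 side in the background, and their deposited log2 differences were 0.41 and -0.15, short of 1.5-fold. Tsc22d3 differed by 0.47, Klf9 by 0.31, Sgk1 by -0.06 and Cdkn1a by -0.21 there, and by 0.08, -0.04, -0.38 and -0.40 in the CM-MRKO response. Hif3a alone passed 1.5-fold in the CM-MRKO response, at 0.60. It was again under the limit in vehicle (108.6, then 140.9), and its deposited log2 difference was 0.38.

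The genes beside the peptide pair on the chromosome were also read. Mfn2, the third protein-coding gene on the Nppb side, differed by -0.22 between the DOC/salt pools and by -0.05 in the WT response, and Plod1, the next, by 0.14 and -0.26. Clcn6, which follows Nppa, was not detected on any array. These neighbours were named for their place and after the peptide values were known.

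Genes with the most similar profile were found as those with the smallest Euclidean distance, over 4 arrays, between log2 levels taken relative to each gene's own mean, among 5471 genes detected on every array. For Nppb they were Tnfrsf12a (distance 0.22), the receptor of the cytokine TWEAK, then Erdr1 (0.33), Adamtsl2 (0.36), a matrix glycoprotein gene, Mtor (0.37), a growth-regulating kinase gene, and Eln (0.38), the elastin gene. Nppa stood at place 37 in that order, at a distance of 0.54, and Nppb at place 2956 in the order of genes nearest to Nppa. Those nearest to Nppa were Mfap4 (0.05), a microfibril-associated glycoprotein gene, Ankrd23 (0.06), a titin-binding ankyrin repeat gene of striated muscle, Prkcd (0.07), a protein kinase C gene, Pnck (0.09), a calcium and calmodulin-dependent kinase gene, and Os9 (0.11), a lectin gene of endoplasmic reticulum quality control. With 4 arrays such likeness is a description of these pools.

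**Figure D4:**
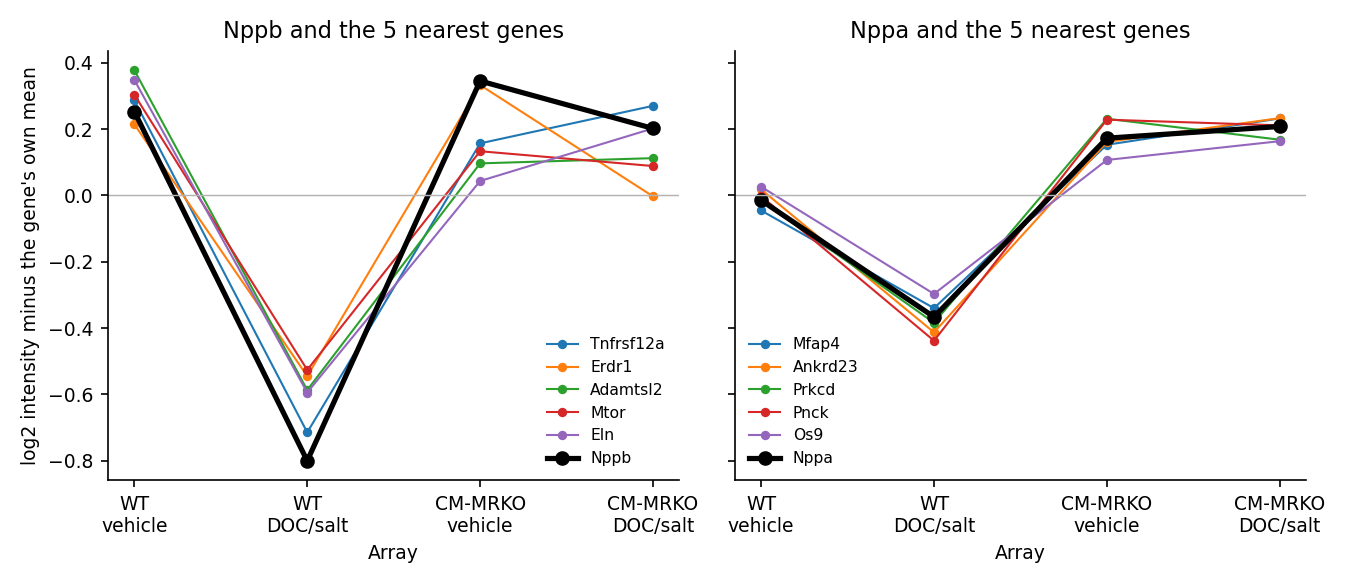
Log2 normalized intensity minus each gene's own mean on the 4 arrays, for Nppb (left, black) and Nppa (right, black) with the 5 genes nearest to each. Every profile shown is lowest on the WT DOC/salt array after normalization. On the deposited intensities this holds for Nppb and its 5 nearest genes, while Nppa and its 5 nearest are lowest on the WT vehicle array.

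A low value on the WT DOC/salt array alone was uncommon. Of the 5471 genes, 7 read lower there than on every other array by 1.5-fold or more, and Nppb had the widest gap, at 1.003 to the nearest array. Tnfrsf12a followed at 0.87, then Adamtsl2 at 0.68, Eln at 0.64, Mtor at 0.62, Tubb2b at 0.59 and Bace2 at 0.59. On the deposited intensities the gap of Nppb was 0.62, and those of the other 6 were at most 0.29, under 1.5-fold.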

How the data were processed

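Bead intensities deposited by the authors are on a linear scale, with array medians that differ, so they were not quantile-normalized or scaled to a common median; whether another scaling was applied is unknown. Partek is named per the submitters' processing notes; a version is not given in the sources used here. Groups came from sample titles, because the treatment text says vehicle even for the DOC/salt samples. A table with 4 columns named after no sample label was not used.

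The platform annotation gave 1 symbol to 23978 of 25697 probes, several to 0 and none to 1719. All 9 member probes matched the GRCm38.p6 gene table by identifier, used for names and gene order. Intensities were background-corrected (normexp, maximum likelihood, offset 16), quantile-normalized and put on the log2 scale with limma 3.58.1 in R 4.3.3. A gene was represented by its brightest probe, and genes detected on 1 or more arrays of a comparison entered it. A gene counted as higher or lower at 1.5-fold. The number of arrays, 4, limits the precision. The scripts were tested on simulated data.

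Named genes followed a rule: all member probes; per list up to 4 genes detected on all 4 arrays with the largest difference of responses, plus those past 1.5-fold in the comparison described; and the 5 nearest profiles for each peptide gene. Members, lists and rule were chosen with earlier results of these data known. Alternatives were an offset of 50, no background correction, deposited values, 2 other scalings, averaging of detected probes, a detection share of 0.05 in place of 0.01, genes detected on every array and, both chosen after seeing the data, normalization without the WT vehicle array and scaling to the 5 cardiomyocyte markers detected on all 4 arrays.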

Additional observations from a re-analysis of the deposited data

Results flagged for a closer look

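Within each genotype the DOC/salt response is a difference between 2 single pools, and 3 members detected on all 4 arrays had normalized responses of opposite sign in the 2 genotypes. On the deposited values the opposite signs were gone, with CM-MRKO and WT responses of 0.12 and 0.08 for Nppa, 0.06 and 0.87 for Corin and 0.07 and 0.41 for Npr2. The difference between the genotypes was not tested in any of them. After normalization Nppa responded by 0.04 in CM-MRKO and by -0.35 in WT, a difference of 0.39 on the log2 scale. For Corin the responses were -0.04 and 0.24, a difference of -0.29. For Npr2 they were -0.02 and 0.26, a difference of -0.28, which turned to 0.11 with scaling to the cardiomyocyte markers. The 3 CM-MRKO responses were all within the technical spread of 0.17, and the WT responses use the WT vehicle array, which stood apart from the rest.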

How the results depend on the processing

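No paired analysis was possible because each group holds 1 pooled array. Of the recomputed Nppa and Nppb differences, 73 moved by less than the technical spread and 11 by more. The 73 include values that could not move. Each gene has 1 probe, detected on every array, so averaging of detected probes and the looser detection share left its values as they were. On the deposited values without normalization, 5 did: Nppa at 0.69 and Nppb at 0.56 for CM-MRKO vehicle minus WT vehicle, Nppa at 0.076 and Nppb at -0.62 for the WT response, and Nppb at 0.51 for the difference of responses. The other 6 came with scaling to 5 cardiomyocyte markers, chosen after seeing the data: Nppa at -0.34 and Nppb at -0.47 between the vehicle pools, -0.85 and -1.56 for the WT response, and 0.89 and 1.36 for the difference of responses. Under it 2 members, Nppa and Nppb, passed 1.5-fold in the WT response and 2, the same genes, in the difference of responses. Over all genes 1582 of 6391 and 2148 of 6830 passed there under the same scaling. Mb, 1 of those markers, was dim on the WT vehicle array alone. On the deposited values the count of members past 1.5-fold was 2 under DOC/salt between genotypes, 2 between the vehicle pools and 3 in the WT response. Over all genes 39 of 6689, 1886 of 6364 and 1721 of 6391 passed in these comparisons. In the difference of responses the member count stayed at 1, but the gene was Corin, beside 1382 of 6830 genes. With median scaling the member counts were 2, 1, 4 and, for the difference of responses, 4. In the same order 148 of 6689, 1738 of 6364, 1954 of 6391 and 2052 of 6830 genes passed. Scaling to detected probes gave 2 members under DOC/salt and 2 for the difference of responses, beside 150 of 6689 and 1157 of 6830 genes. Normalization without the WT vehicle array left the count under DOC/salt at 1.

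Counts over all genes moved more. For the CM-MRKO response, 70 genes became 14 with offset 50, 8 with no background correction, 8 on the deposited values, 35 for genes detected on every array and 126 with the looser detection share. Between genotypes under DOC/salt, 122 became 32, 26, 39 and 71 under the first 4 of these. For the WT response, 823 became 398, 277, 1721 and 533, 1954 with median scaling and 1582 with marker scaling. For the vehicle pools, 639 became 295, 209, 1886 and 393, 1738 with median scaling and 1922 with marker scaling. The difference of responses went from 1154 to 598, 403 and 738 with offset 50, no background correction and detection on every array, to 2052 with median scaling and to 2148 with marker scaling. The share of called genes that were higher was 68.3% in the WT response but reached 99.5% under median scaling and 99.9% for deposited intensities, and 40.2% in the difference of responses but 3.36% and 0.145%. Between the vehicle pools it was 74.2% but 99.7% and 100%. With marker scaling these 3 shares were 11.2%, 88.7% and 5.83%, as the median of all genes shifted to -0.35, 0.36 and -0.42. Under DOC/salt the share was 48.4%, with 71.8% on deposited values and 25.8% with marker scaling, and in the CM-MRKO response 60%, with 87.5% on deposited values and 70.7% with median scaling. The cause of these shifts was not tested. Npr1, Npr3 and 2 Furin probes lay too near the array background for small differences to be read.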
